A study of Mus musculus with 23 samples.

Results

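The 10 transcripts described here encode the transcription factors ATF4 and CHOP, their partners and their feedback regulators, and were followed in ribosome-bound RNA of mouse spinal cord. They were chosen by gene name (Atf4, Atf5, Atf3, Ddit3, Cebpb, Cebpg, Nupr1, Trib3, Chac1 and Sesn2). All 10 matched 1 gene ID each among the 38924 gene IDs of the 23 libraries.

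ATF4 is the main transcription factor of the integrated stress response. Kinases that sense amino acid shortage, uncharged tRNA, unfolded protein, haem deficiency or viral RNA phosphorylate the initiation factor eIF2, which lowers bulk translation while translation of the Atf4 message rises through upstream reading frames. ATF4 pairs with C/EBP proteins on C/EBP-ATF response elements and induces, among others, Ddit3, the gene of CHOP, together with genes such as Trib3 and Chac1 that feed back on the response or carry out its later steps.

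The study profiled RNA bound to tagged ribosomes (RiboTag) in spinal cords of mice aged 2 weeks, before disease onset per the series title. Every mouse was heterozygous for a conditional haemagglutinin tag on the ribosomal protein gene Rpl22 (Rpl+/-). In carriers of ChAT-Cre (Chat+/-) recombination turns the tag on in cells that have used the choline acetyltransferase promoter, which include motor neurons. GarsC201R changes glycyl-tRNA synthetase and gives heterozygous mice a peripheral nerve disease. The strain background of every mouse was B6.CgxB6.129. The groups were 6 libraries of mice with the Gars allele and Cre (Rpl+/-;Chat+/-;C201R+/-, here mutant Cre) and 5 with Cre and no Gars allele (Rpl+/-;Chat+/-;C201R+/+, wild-type Cre). A further 6 had the Gars allele and no Cre (Rpl+/-;Chat+/+;C201R+/-, mutant no-Cre) and 6 had neither (Rpl+/-;Chat+/+;C201R+/+, wild-type no-Cre). Without Cre the tag is not switched on, so those precipitates are background. The Gars allele is in every cell of the animal, while the tag is read in ChAT-Cre cells only.

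The C/EBP-ATF response element has the core TGATGNAA, and 300-base windows around the RefSeq transcript starts (250 bases before to 50 after, GRCm38.p6) were searched for it on both strands. It was present in windows of 4 of the 10 genes, Atf3, Nupr1, Trib3 and Chac1. That was 4 of their 11 windows (36.4%), where 3.97% of all 32851 windows held it. Among other integrated stress response genes 9 of 36 windows (25%) did. The promoter stretches of the 4 genes are shown because they hold the element. Capitals mark the match, which lies on the opposite strand, so that the element reads as its reverse complement. The Atf3 sequence is chr1:191183334-191183583, minus strand, the Nupr1 sequence chr7:126625471-126625720, minus strand, and the Chac1 sequence chr2:119350992-119351241, plus strand, each the 250 bases before the start.
Atf3: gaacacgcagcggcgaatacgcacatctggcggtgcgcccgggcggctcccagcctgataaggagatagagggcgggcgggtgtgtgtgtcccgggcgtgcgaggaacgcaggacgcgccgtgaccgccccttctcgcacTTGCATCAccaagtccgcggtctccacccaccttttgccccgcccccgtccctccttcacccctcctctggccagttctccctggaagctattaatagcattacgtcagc
Nupr1: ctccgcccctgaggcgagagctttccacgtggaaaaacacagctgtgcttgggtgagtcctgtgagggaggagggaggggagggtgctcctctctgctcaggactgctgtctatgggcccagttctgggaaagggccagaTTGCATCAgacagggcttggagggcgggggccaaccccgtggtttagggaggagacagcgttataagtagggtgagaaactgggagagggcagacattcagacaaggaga
Chac1: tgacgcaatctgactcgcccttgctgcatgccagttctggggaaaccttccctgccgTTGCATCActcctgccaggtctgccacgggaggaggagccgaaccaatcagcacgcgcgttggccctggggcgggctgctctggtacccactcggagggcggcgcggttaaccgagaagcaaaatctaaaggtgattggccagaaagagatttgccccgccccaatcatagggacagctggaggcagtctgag
Trib3: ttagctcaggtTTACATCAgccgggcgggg

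The Trib3 stretch is chr2:152344028-152344057, minus strand, 30 bases around a match that starts at base 15 after the RefSeq start. In the GENCODE M21 annotation the gene starts at base 152344032 of the minus strand, so the match lies before that start. In Atf3 and Nupr1 the match began at the same distance, 110 bases before the start, and in Chac1 193 bases before it. The related core TGACGNAA, which does not overlap these matches, was found in the windows of Atf3 (10 bases before the start, on the opposite strand) and Chac1 (250 bases before it), and in 1.59% of all windows. The cyclic AMP response element TGACGTCA was in 0 of the 11 windows of the 10 genes (Atf5 has 2 starts) and in 1.79% of all windows. Atf4, Atf5, Ddit3, Cebpb, Cebpg and Sesn2 held neither core in these windows. A match is a description of the letters and not a site of binding.

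**Figure D1:**
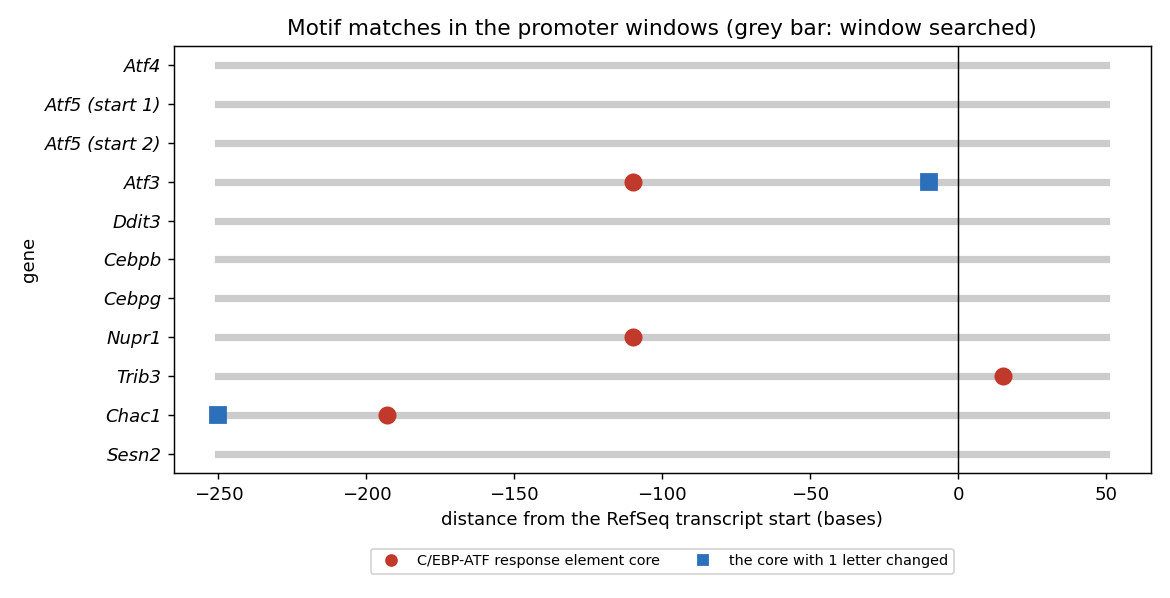
Matches to the C/EBP-ATF response element core and to the same core with 1 letter changed, by distance in bases from the RefSeq transcript start, in the 11 windows of the 10 genes (rows). The core lies 110 bases before the start in both Atf3 and Nupr1.

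Total expected counts were 11696397 to 14511394 in mutant Cre, 9031654 to 13636772 in wild-type Cre, 12042625 to 19671869 in mutant no-Cre and 12538407 to 18806506 in wild-type no-Cre libraries. Ribosomal RNA and ribosomal RNA-like gene models took 50.6% to 95.6% of them. Outside them were 2927104 to 6237428 counts in mutant Cre, 1213587 to 4466014 in wild-type Cre, 594383 to 4886780 in mutant no-Cre and 2170423 to 5582508 in wild-type no-Cre libraries. The Gars allele is a missense change, so the level of Gars does not check the labels. Gars did not pass the test between mutant and wild-type Cre (log2 fold change 0.26, SE 0.22, edgeR adjusted p = 0.532). Chat marked the Cre precipitates, with 13.7 to 57.0 CPM (counts scaled to a common library size with TMM factors) in mutant Cre and 42.6 to 68.8 CPM in wild-type Cre, against 1.05 to 6.89 in mutant no-Cre and 1.07 to 5.77 in wild-type no-Cre libraries. Some Cre libraries stood apart in glial RNA. The summed level of 12 oligodendrocyte markers was 5550 and 7184 CPM in replicates 4 and 6 of mutant Cre, whose titles both begin with 18405, and 3422 CPM in replicate 2 of wild-type Cre. It was 922 to 2503 CPM in the other mutant Cre and 616 to 803 CPM in the other wild-type Cre libraries.

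Per unit of transcript length, Atf4 was the most abundant of the 10 in every group. In TPM, a length-corrected unit that allows genes of 1 library to be compared, its median was 66.7 (31.6 to 77.9) in mutant Cre and 15.2 (7.26 to 32.1) in wild-type Cre libraries. The deposited TPM includes ribosomal RNA-like genes, whose median share of counts was 60.5% in mutant Cre and 79.3% in wild-type Cre. TPM values are therefore not compared between groups. Below Atf4 in mutant Cre came Chac1 at a median of 22.8 TPM, Ddit3 at 20.1, Nupr1 at 10.05, Atf5 at 7.095, Sesn2 at 5.31, Cebpg at 4.905, Cebpb at 1.825, Atf3 at 0.51 and Trib3 at 0.41 TPM. In wild-type Cre the order was Chac1 at 3.77 TPM, Cebpg at 2.92, Ddit3 at 1.72, Cebpb at 1.32, Atf5 at 1.27 and Sesn2 at 0.89 TPM, with Atf3, Trib3 and Nupr1 at a median of 0. The ranges of neighbours in these orders overlapped, apart from Sesn2 (0.51 to 2.65 TPM) over Atf3 (0 in all 5 libraries) in wild-type Cre. Nupr1 thus stood above 6 of the other members in mutant Cre and shared the lowest place in wild-type Cre. In the no-Cre precipitates Atf4 led at medians of 8.63 TPM in mutants and 13.6 TPM in wild type. Every other member had a median of at most 1.99 TPM in mutant no-Cre, and in wild-type no-Cre Cebpg followed Atf4 at 5.695 TPM and Ddit3 at 3.265 TPM.

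**Figure D2:**
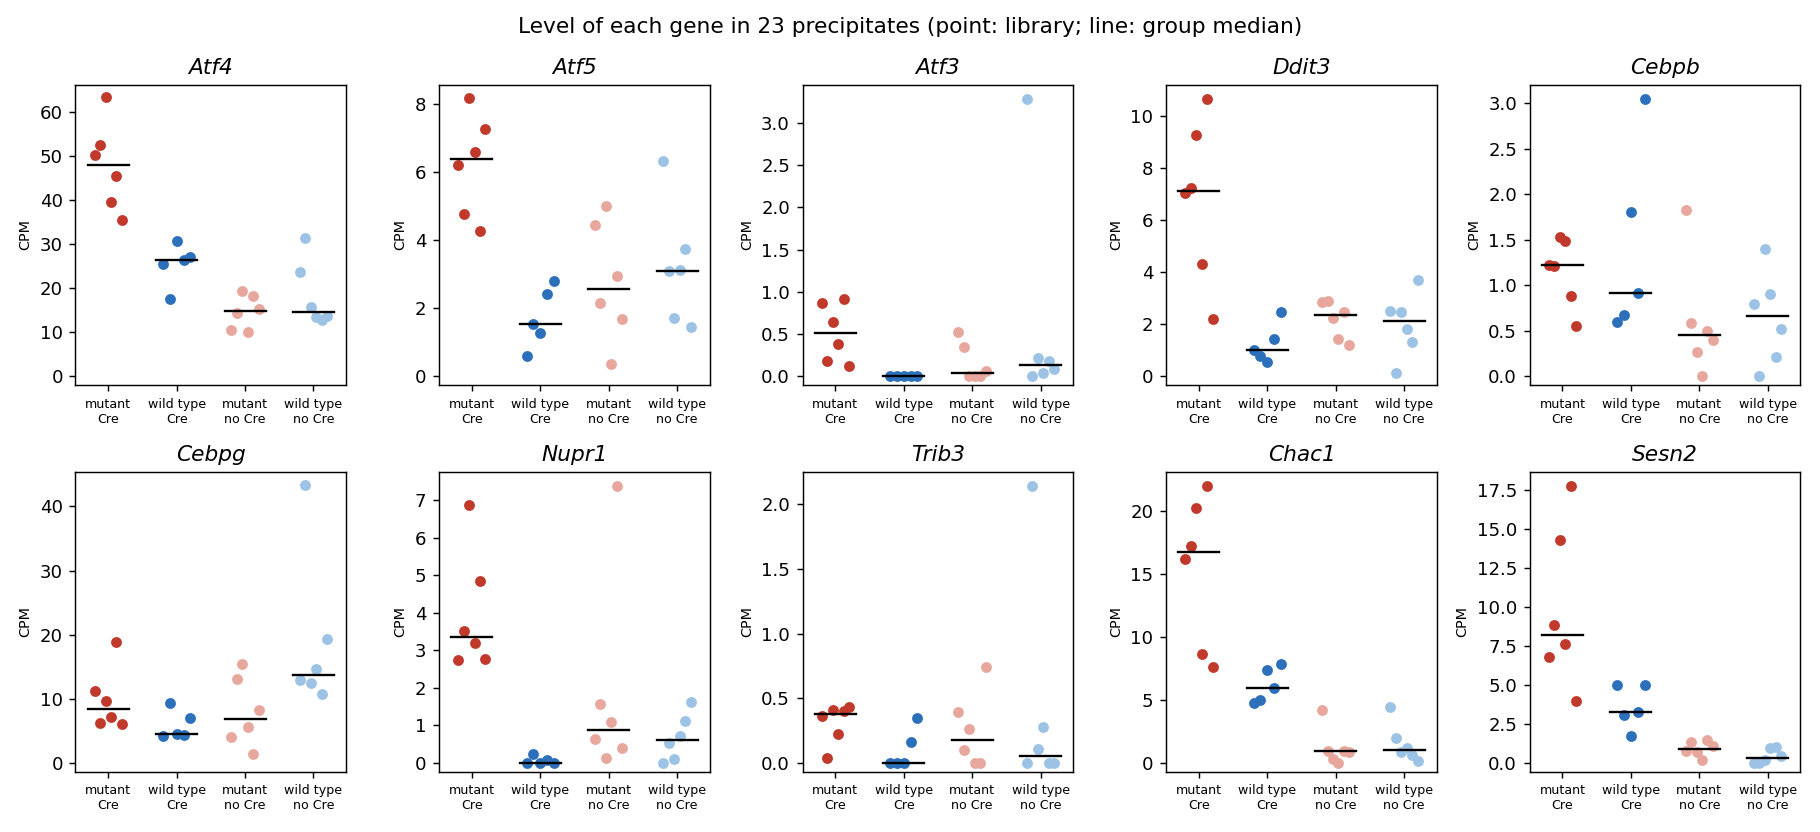
Level of each gene in CPM (y axis, its own scale in each panel) in mutant Cre, wild-type Cre, mutant no-Cre and wild-type no-Cre libraries; points are libraries and lines are group medians. Mutant Cre libraries lie above all wild-type Cre libraries for Atf4, Atf5 and Nupr1, as for 1.09% of genes tested. They also do so for Atf3, which was not tested and was at 0 in wild-type Cre.

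The contrast of the Gars genotypes among Cre libraries compares precipitates that hold messages bound by tagged ribosomes together with background RNA. Nupr1, Ddit3 and Atf5 rose in the mutants, by 5.30, 2.41 and 1.80 on the log2 scale. Of these, Nupr1 (1.11, edgeR adjusted p = 0.254) and Atf5 (0.89, 0.122) were not called above the no-Cre background within mutants, as described below. Atf4, Chac1, Sesn2 and Cebpg had positive differences (0.86, 1.24, 1.42 and 0.69) that did not pass the adjusted threshold of 0.05, and Cebpb stood at -0.34. Thus 3 of the 8 tested members were called higher and 0 lower, where edgeR's quasi-likelihood test called 0.234% of 12399 genes higher and 0.0968% lower. The median of the 8 was 1.33, and that of all genes tested 0.06. At an unadjusted p under 0.05 there were 7 of the 8 members and 17% of all genes. Nupr1 passed the low-count filter through the mutant libraries only. Atf5 and Ddit3 also passed only with the help of the mutant libraries, as too few wild-type Cre libraries were above its limit. The counts of members at each threshold and their median are therefore descriptions. Atf3 and Trib3 did not pass that filter. In whole precipitates fewer cells of a type and less RNA per cell cannot be told apart.

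**Figure D3:**
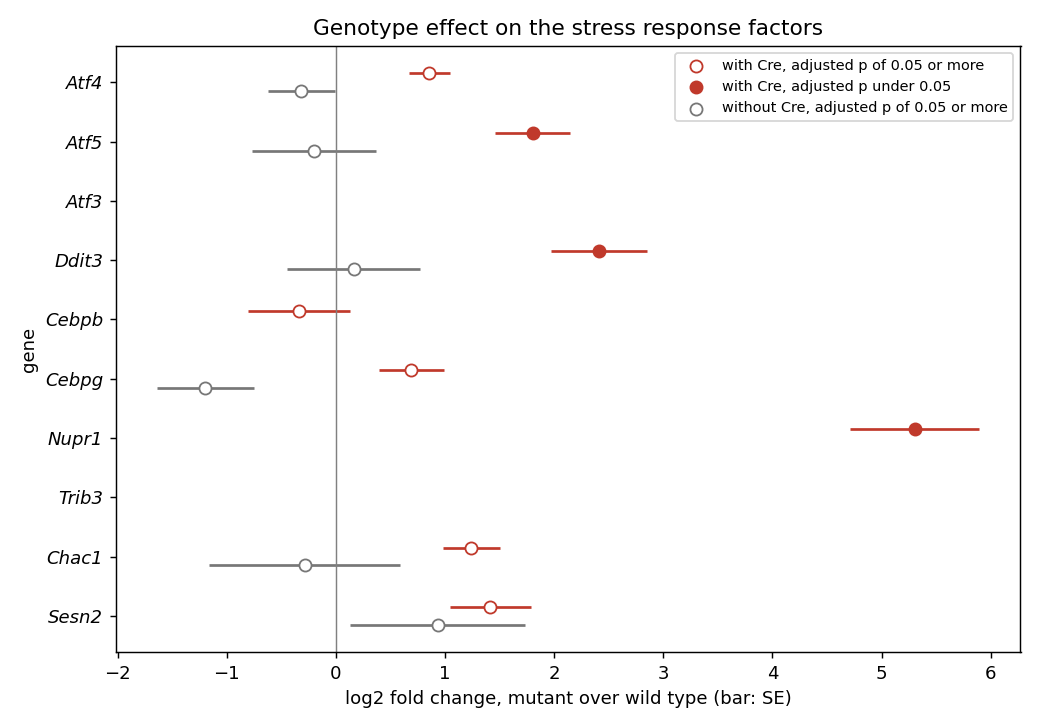
Log2 fold change of mutant over wild type (x axis) for each gene (rows) with Cre and without Cre, with SE as bars; filled points passed an edgeR adjusted p of 0.05. With Cre, Nupr1, Ddit3 and Atf5 passed, and without Cre 0 members did; genes without a point were not tested.

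Atf4 (ENSMUSG00000042406, chr15:80255184-80257541, plus strand, GENCODE M21 on GRCm38 as for the positions that follow), the central factor, ranged from 35.4 to 63.5 CPM with a median of 47.9 in the 6 mutant Cre libraries, against 25.5, 17.6, 30.8, 26.4 and 27.2 CPM in wild-type Cre replicates 1 to 5. Every mutant library was above every wild-type library, as for 1.09% of genes tested. The difference was 0.86 (SE 0.18, edgeR adjusted p = 0.0676). The call depended on the tool: DESeq2, which called 3.33% of genes, gave 0.84 with an adjusted p of 0.00341, and limma-voom, which called 7%, gave 0.80 with 0.00894. Without replicate 2 of wild-type Cre, where edgeR called 8.41% of genes, the adjusted p was 0.02.

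Atf5 (ENSMUSG00000038539, chr7:44812256-44816658, minus strand), an ATF4 relative under the same kind of translational control, ranged from 4.27 to 8.16 CPM with a median of 6.39 in mutant Cre. In wild-type Cre it stood at 0.598, 1.53, 1.26, 2.42 and 2.81 CPM. The groups did not overlap, and Atf5 rose by 1.80 (SE 0.34, edgeR adjusted p = 0.0363). In GENCODE M21, 82 of its 1993 exonic bases lie opposite exons of Il4i1 and Nup62. Reads from the overlap cannot be told apart where strand was not used, and the counting is not given in the sources used here. The call was lost in 8 of 11 fits that left out 1 library, at adjusted p = 0.0799, 0.13 and 0.0753 on leaving out wild-type Cre replicates 1, 3 and 4, and 0.0567, 0.0771, 0.0852, 0.05 and 0.0625 on leaving out mutant Cre replicates 1, 3, 4, 5 and 6.

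Atf3 (ENSMUSG00000026628, chr1:191170296-191218039, minus strand), a stress- and injury-induced factor, had 24, 5, 11, 10, 25 and 2 counts in mutant Cre replicates 1 to 6 and 0 counts in each of the 5 wild-type Cre libraries. Against a floor of 3 counts over the wild-type group mutant Cre was at least 10.4-fold higher, and the lower bound of the 95% counting interval, which also allows for error in the mutant counts, was 8.27. The floor and the counting intervals cover counting error only. Outside Cre precipitates Atf3 was present too, with 12 counts over the 6 mutant no-Cre and 35 over the 6 wild-type no-Cre libraries, 25 of these in replicate 1.

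Ddit3 (ENSMUSG00000025408, chr10:127290774-127296288, plus strand) encodes CHOP, a C/EBP family factor that promotes cell death in prolonged stress. It ranged from 2.22 to 10.7 CPM with a median of 7.12 in mutant Cre, against 0.997, 0.765, 0.542, 1.42 and 2.46 CPM in wild-type Cre. Only replicate 6 of mutant Cre, at 2.22 CPM, fell below a wild-type library, replicate 5 at 2.46 CPM. Ddit3 rose by 2.41 (SE 0.44, edgeR adjusted p = 0.0259), and 990 counts over mutant Cre stood against 65 over wild-type Cre. The call was lost in 6 of 11 fits that left out 1 library, at adjusted p = 0.0843, 0.0919 and 0.0958 on leaving out wild-type Cre replicates 1, 3 and 4, and 0.051, 0.0678 and 0.0608 on leaving out mutant Cre replicates 2, 3 and 5. Its exons lie opposite 68 bases of Mars, the methionyl-tRNA synthetase gene, out of 1713, and share 105 bases with a second model named Ddit3. Mars itself had a difference of 0.61 (SE 0.21, adjusted p = 0.19).

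The C/EBP partners differed from each other. Cebpg (ENSMUSG00000056216, chr7:35046422-35056573, minus strand), whose product pairs with ATF4, ranged from 6.10 to 18.8 CPM with a median of 8.45 in mutant Cre, against 4.19, 9.33, 4.51, 4.33 and 7.03 CPM in wild-type Cre. The groups overlapped, and the difference was 0.69 (SE 0.30, edgeR adjusted p = 0.271). Cebpb (ENSMUSG00000056501, chr2:167688915-167690418, plus strand), a partner of many bZIP factors with roles in inflammation and metabolism, ranged from 0.554 to 1.53 CPM with a median of 1.22 in mutant Cre, against 0.598, 0.670, 1.81, 0.916 and 3.05 CPM in wild-type Cre. It was the 1 tested member with a negative difference (-0.34, SE 0.47, edgeR adjusted p = 0.721), which turned to 0.17 without replicate 5 of wild-type Cre. In GENCODE M21, 312 of the 1504 bases of Cebpb lie opposite exons of Tmem189.

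Nupr1 (ENSMUSG00000030717, chr7:126623249-126630861, minus strand), a small chromatin-associated protein induced by many stresses, ranged from 2.74 to 6.87 CPM with a median of 3.36 in mutant Cre. It had 0, 5, 0, 1 and 0 counts in wild-type Cre replicates 1 to 5, against 45 to 132 counts in each mutant Cre library. The groups did not overlap, and the ratio of 550 to 6 summed counts was 37.2 after scaling (95% counting interval 17.0 to 102). edgeR gave 5.30 (SE 0.59, adjusted p = 0.00108), a fitted value that depends on the few wild-type counts. Nupr1 was also present without Cre, with 67 counts over mutant no-Cre and 91 over wild-type no-Cre libraries, where the 5 wild-type Cre libraries held 6.

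Trib3 (ENSMUSG00000032715, chr2:152337422-152344032, minus strand), a pseudokinase that dampens ATF4 and CHOP activity, had 10, 1, 7, 6, 11 and 7 counts in mutant Cre and 0, 0, 0, 2 and 3 counts in wild-type Cre replicates 1 to 5. The ratio of the sums was 3.41 (95% counting interval 1.35 to 11.04), with no test across libraries.

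Chac1 (ENSMUSG00000027313, chr2:119351229-119354381, plus strand), which degrades glutathione, ranged from 7.64 to 22.0 CPM with a median of 16.7 in mutant Cre, against 4.79, 5.02, 7.40, 5.91 and 7.85 CPM in wild-type Cre. Replicate 6 of mutant Cre was the only mutant library below a wild-type library. The difference was 1.24 (SE 0.26, edgeR adjusted p = 0.062), and passed with DESeq2 (1.22, adjusted p = 0.00239) and limma-voom (1.22, 0.0109). Chac1 was also called on leaving out wild-type Cre replicate 2 (edgeR adjusted p = 0.0279), mutant Cre replicate 4 (0.0418) or mutant Cre replicate 6 (0.0212).

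Sesn2 (ENSMUSG00000028893, chr4:132492032-132510501, minus strand), a leucine-sensing inhibitor of mTORC1, ranged from 4.00 to 17.8 CPM with a median of 8.24 in mutant Cre, against 4.99, 3.06, 1.72, 3.25 and 5.04 CPM in wild-type Cre. Replicate 6 was again the mutant library within the wild-type range. The difference was 1.42 (SE 0.37, edgeR adjusted p = 0.11), and passed with DESeq2 (1.38, adjusted p = 0.0158) and limma-voom (1.48, 0.0418).

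The mutant libraries were not alike. Replicates 4 and 6 of mutant Cre had the lowest levels of Atf4 (39.6 and 35.4 CPM), Ddit3 (4.33 and 2.22 CPM) and Chac1 (8.63 and 7.64 CPM) among the 6, and they were also the libraries highest in oligodendrocyte markers. Their summed motor neuron markers, 440 and 268 CPM, were below the 849 to 992 CPM of the other mutant Cre and the 869 to 1161 CPM of the wild-type Cre libraries. Atf5 was not low in them, at 6.57 and 7.27 CPM. Without these 2 libraries and replicate 2 of wild-type Cre, 7 of the 8 tested members were called higher, all but Cebpb, where 10.9% of genes were called in either direction. In that fit, chosen after the data were seen, Atf4 stood at 0.82 (adjusted p = 0.00653), Chac1 at 1.40 (0.0016), Sesn2 at 1.58 (0.0171) and Cebpg at 1.06 (0.0421). Of the other marker lists, summed microglia genes were 10.1 to 173 CPM in mutant Cre and 10.2 to 15.2 in wild-type Cre, astrocyte genes 179 to 679 and 173 to 435, endothelial genes 5.79 to 121 and 3.39 to 45.1, and erythroid genes 53.7 to 1161 and 53.2 to 291 CPM. The median differences of mutant over wild-type Cre were 1.61 for oligodendrocyte, 0.97 for astrocyte, 2.40 for microglia, 1.44 for endothelial and 1.65 for erythroid genes, beside 1.33 for the tested members. edgeR called 0 genes of each list. At an unadjusted p under 0.05 there were 8 of 12 oligodendrocyte genes (0 called by DESeq2, 1 by limma-voom), 1 of 10 astrocyte (0 and 1), 4 of 4 microglia (1 and 0), 1 of 9 endothelial (0 and 0) and 1 of 6 erythroid genes (0 and 0). Of 15 motor neuron genes 7 had an unadjusted p under 0.05, and DESeq2 called 3 and limma-voom 6 of them lower, with a median difference of -0.59 by edgeR. The part of glial RNA in the results was not tested beyond these values.

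**Figure D4:**
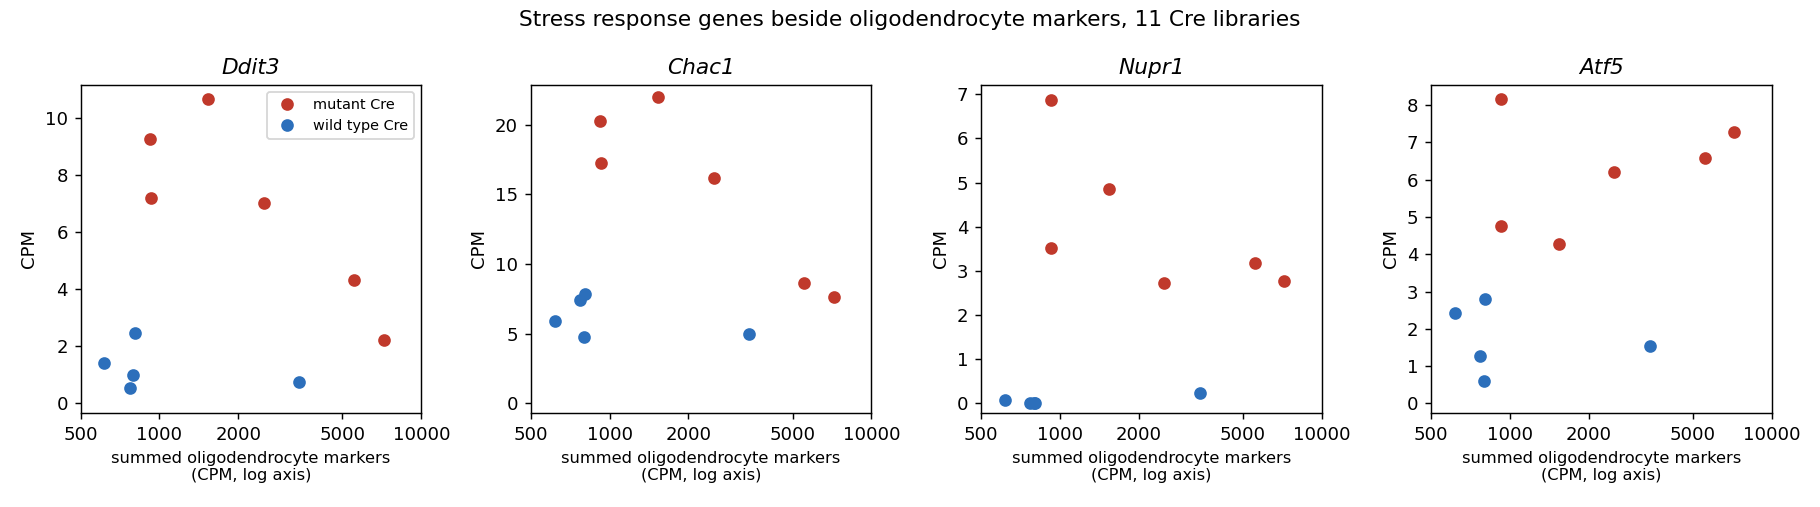
Level of Ddit3, Chac1, Nupr1 and Atf5 (CPM, y axis) against the summed level of 12 oligodendrocyte markers (CPM, log x axis) in the 6 mutant Cre and 5 wild-type Cre libraries. The 2 mutant libraries at the right, replicates 4 and 6, have the lowest mutant values of Ddit3 and Chac1 and not of Atf5.

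The leading number of a title, whose meaning the labels do not give, was shared by 2 libraries of each Cre genotype for 20302 and for 20401. Within 20302 the means of log2(CPM + 1) were higher in mutant Cre by 0.81 for Atf4, 1.13 for Atf5, 1.81 for Ddit3, 2.04 for Nupr1, 1.04 for Chac1 and 1.11 for Sesn2. Within 20401 they were higher by 1.31, 1.79, 2.54, 2.61, 1.91 and 1.78 for the same genes. Cebpb differed in sign, at -0.60 within 20302 and 0.42 within 20401. Within 20302 Xist, the X-inactivation RNA that marks females, was at 0.0360 and 0.0367 CPM in mutant Cre and at 16.3 and 18.7 CPM in wild-type Cre libraries, so genotype and sex cannot be told apart there. With the number as a term of the fit, which called 0.157% of genes, Ddit3, Nupr1 and Chac1 were called, and Atf5 had an adjusted p of 0.232.

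Other genes of the pathway gave the setting. Of 35 tested targets and effectors of the integrated stress response outside the 10, edgeR called 12 higher and 0 lower in mutant Cre, with a median of 1.41, where it called 0.234% of all genes higher. DESeq2 called 20 of them higher and limma-voom 22, where these tools called 3.33% and 7% of all genes in either direction. Among them were the serine synthesis genes Psph (12.6 CPM in mutant Cre against 1.77 in wild-type Cre, adjusted p = 0.000804) and Psat1 (53.8 against 13.4 CPM, 0.0027). The hormone gene Fgf21 averaged 12.6 CPM in mutant Cre and 0.0595 in wild-type Cre (adjusted p = 5.68e-05), and Fam129a 4.62 and 0.445 CPM (0.0027). The list was chosen with earlier results of these data known, and these genes were named for their small p in this same contrast. Fgf21 passed the low-count filter through the mutant libraries only. The counts of called genes in this list are therefore descriptions. Upstream, 0 of 10 genes of eIF2, its kinases and phosphatase subunits were called (2 at an unadjusted p under 0.05, 1 called by DESeq2 and 1 by limma-voom, in each case Ppp1r15b), with a median of 0.10. Ppp1r15b, the constitutive phosphatase subunit, differed by 0.80 (adjusted p = 0.11), the inducible Ppp1r15a by 0.73 (0.279), Eif2s1, the subunit that is phosphorylated, by -0.41 (0.305) and Eif2ak3, the kinase PERK, by 0.34 (0.508).

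Downstream of CHOP, 0 of 5 tested target genes were called (3 at an unadjusted p under 0.05, 1 by DESeq2, 2 by limma-voom), with a median of 0.73. Bcl2l11, the gene of the death factor BIM, differed by 2.24 (edgeR adjusted p = 0.0916), the oxidase gene Ero1l by 0.92 (0.132) and Bbc3, the gene of PUMA, by 0.60 (0.474). Beside Bcl2l11 and Ero1l, the gene at an unadjusted p under 0.05 was Ppp1r15a, which is also counted among the 10 upstream genes, and not Bbc3. Genes of the other arms of the unfolded protein response gave 0 of 18 calls (3 unadjusted, 1 by DESeq2, 2 by limma-voom) and a median of 0.10, with Dnajb9 at 0.70 (0.117), Sdf2l1 at 0.80 (0.264), Herpud1 at 0.80 (0.287) and Dnajc3 at 0.34 (0.334). Paralogs of the 10 gave 0 of 13 calls (1 unadjusted, 0 by either other tool) and a median of 0.34, with Atf2 at 0.48 (0.274), Crem at -0.72 (0.324), Atf1 at 0.89 (0.326) and Atf6 at 0.36 (0.376). Other bZIP partners gave 0 of 11 (1 unadjusted, 0 by DESeq2, 1 by limma-voom) and a median of -0.03. Among these Nfe2l2, the gene of the oxidative stress factor NRF2, stood at 2.09 (0.279), Junb at -0.73 (0.334), Fos at -0.50 (0.424) and Fosl2 at 0.79 (0.458).

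Comparing the genotypes without Cre gives the background. Atf4 ranged from 9.96 to 19.3 CPM with a median of 14.8 in mutant no-Cre and from 12.8 to 31.5 with a median of 14.7 in wild-type no-Cre libraries. Ddit3 ranged from 1.21 to 2.90 with a median of 2.35 in mutant no-Cre and from 0.134 to 3.71 with a median of 2.14 CPM in wild-type no-Cre. For both the groups overlapped. edgeR called 0 of the 6 tested members and 0% of 12588 genes, with 1 member and 4.49% of genes at an unadjusted p under 0.05, and DESeq2 and limma-voom also called 0 members. The median difference was -0.24 over the members and -0.02 over all genes tested. The 1 member was Cebpg, at 1.48 to 15.4 CPM in mutant no-Cre and 10.8 to 43.3 CPM in wild-type no-Cre (-1.20, SE 0.44, edgeR adjusted p = 0.951). Atf3, Cebpb, Nupr1 and Trib3 were not tested there.

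The difference of the genotype effects with and without Cre asks whether the rise belongs to the tagged cells' RNA. With edgeR 0 of 9 tested members passed, where 0.0207% of 14468 genes did. At an unadjusted p under 0.05 there were 6 members (Atf3, Atf4, Atf5, Ddit3, Cebpg and Nupr1) and 10.5% of genes. Atf3, at 0 in all 5 wild-type Cre libraries, passed the low-count filter only with the help of the mutant Cre libraries. Its estimate of 7.78 (SE 2.14, edgeR adjusted p = 0.327) depends on those zeros. The count of members is therefore a description. The estimates were 4.11 (SE 1.27, adjusted p = 0.335) for Nupr1, 2.25 (SE 0.73, 0.337) for Ddit3, 1.99 (SE 0.67, 0.347) for Atf5, 1.85 (SE 0.58, 0.335) for Cebpg and 1.17 (SE 0.36, 0.335) for Atf4. Chac1 (1.49, adjusted p = 0.539), Sesn2 (0.55, 0.829) and Cebpb (-0.27, 0.943) did not pass either threshold. DESeq2 called 0 members and 0.29% of genes. limma-voom called 1.17% of genes and 2 members, Ddit3 (2.36, adjusted p = 0.0471) and Nupr1 (5.79, 0.00471). The rise with Cre in Nupr1, Ddit3 and Atf5 is therefore not shown by edgeR to differ from the effect without Cre.

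Comparing Cre with no-Cre precipitates within a genotype asks which of the transcripts tagged ribosomes carried above background. In mutants, Chac1, Sesn2, Atf4 and Ddit3 rose with Cre, by 3.35 (SE 0.60, edgeR adjusted p = 0.000544), 3.15 (SE 0.44, 7.48e-05), 1.41 (SE 0.22, 0.000152) and 1.32 (SE 0.38, 0.0142). That was 4 of 8 tested members higher and 0 lower, where 14.1% of 12741 genes were higher and 19.2% lower. Chac1 had 0 to 4.17 CPM and Sesn2 0.181 to 1.48 CPM in mutant no-Cre libraries, below every mutant Cre library, as was Atf4; 13.3% of genes were above without overlap. Atf5 (0.89, adjusted p = 0.122), Nupr1 (1.11, 0.254), Cebpb (0.66, 0.428) and Cebpg (-0.02, 0.971) were not called by edgeR. The Nupr1 result rested on replicate 5 of mutant no-Cre, the shallowest library, which held 7.39 CPM from 15 counts against at most 1.57 CPM in the others. Without it the difference was 2.28 (adjusted p = 0.00416). Without replicate 1 of mutant no-Cre Atf5 was called (1.26, adjusted p = 0.0466). The tool mattered too. DESeq2, which called 5195 of 12741 genes, called Atf5 (0.99, adjusted p = 0.0406) and not Nupr1. limma-voom, which called 6990, called Atf5 (0.91, adjusted p = 0.035) and Nupr1 (2.33, 0.00335). Within title number 18405, the one the mutant groups share, were replicates 4 and 6 of mutant Cre, the libraries high in oligodendrocyte markers, and 1 mutant no-Cre library. There Ddit3 had a fitted difference of 0.15, with a lone no-Cre library and no term for the number.

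In wild type, Sesn2 (2.79, SE 0.75, edgeR adjusted p = 0.00644) and Chac1 (1.98, SE 0.63, 0.0163) rose with Cre and Cebpg fell by 1.75 (SE 0.39, 0.00161). These were 2 of 7 tested members higher and 1 lower, where 20% of 12485 genes were higher and 25.9% lower. Cebpg was at 4.19 to 9.33 CPM in wild-type Cre and 10.8 to 43.3 CPM in wild-type no-Cre, without overlap, as for 12.2% of genes. Atf4 (0.40, adjusted p = 0.267), Cebpb (1.06, 0.274), Ddit3 (-0.76, 0.37) and Atf5 (-0.96, 0.152) were not called by edgeR. limma-voom, which called 8547 of 12485 genes, called Atf4 (0.91, adjusted p = 0.000136) and Cebpb (1.38, 0.0366) higher. With the title number as a term, where edgeR called 5769 of 12702 genes, Atf5 was called lower (-1.48, adjusted p = 0.0406). Atf3 and Nupr1, not tested here, had fewer summed counts in wild-type Cre (0 and 6) than in wild-type no-Cre libraries (35 and 91). For Nupr1 the ratio of Cre to no Cre was 0.115 (95% counting interval 0.0411 to 0.26). The comparisons within wild type and between the Cre groups share the wild-type Cre libraries, so their values stand side by side and are not independent.

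**Figure D5:**
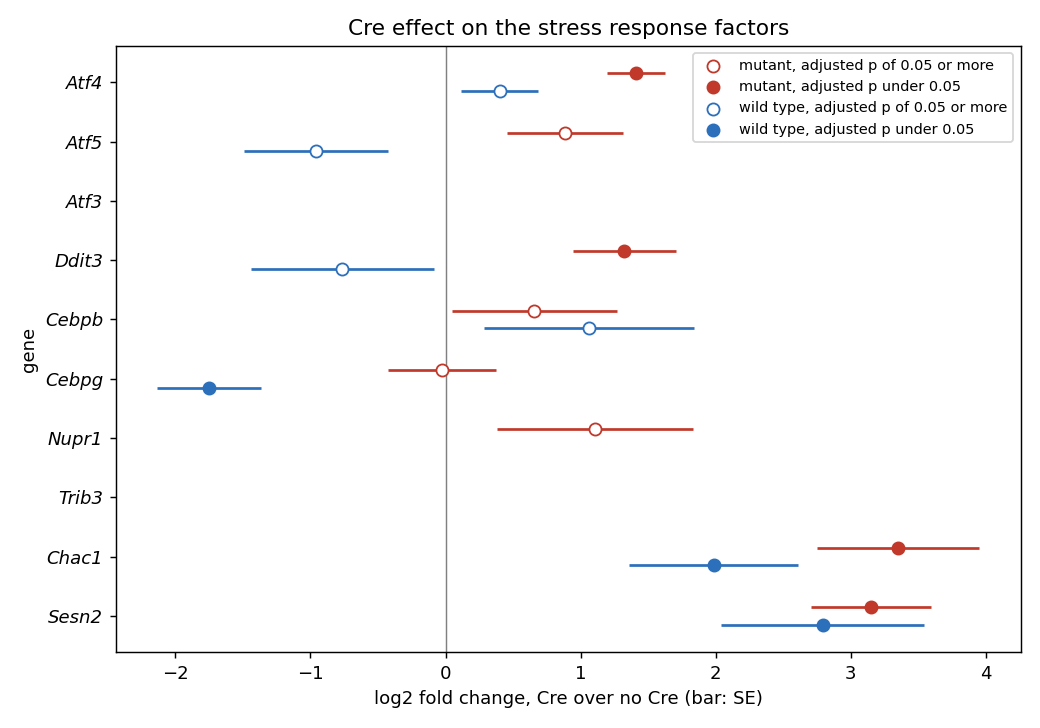
Log2 fold change of Cre over no Cre (x axis) for each gene (rows) in mutants and in wild type, with SE as bars; filled points passed an edgeR adjusted p of 0.05. Chac1 and Sesn2 passed in both genotypes, Atf4 and Ddit3 in mutants and Cebpg, lower with Cre, in wild type.

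Within a library the members can also be read against Atf4, which needs no scaling. Per 100 counts of Atf4 there were 6.26 to 23.4 counts of Ddit3 in mutant Cre (median 13.9) and 1.76 to 9.05 in wild-type Cre libraries (median 4.36). For Atf5 the counts were 9.07 to 20.5 (median 12.6) in mutant Cre and 2.34 to 10.3 (median 8.72) in wild-type Cre. Nupr1, which passed the low-count filter through the mutant libraries only, had 5.45 to 10.8 in mutant Cre against 0 to 1.36 in wild-type Cre. By contrast Cebpg (medians 17.6 in mutant Cre and 16.4 in wild-type Cre) and Sesn2 (18.1 and 17.4) had close medians and overlapping ranges. Chac1 stood at 21.6 to 48.3 (median 32.0) in mutant Cre and 18.8 to 28.9 (median 24.0) in wild-type Cre. These ratios are descriptions, since all share the Atf4 count.

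The genes most like Atf4 over all 23 libraries were named by the smallest root mean square difference of centred log2(CPM + 1) among 12039 genes. For Atf4 these were Lars (0.361), the leucyl-tRNA synthetase gene, Tcea1 (0.371), an elongation factor gene of RNA polymerase II, and Slc38a2 (0.406), a neutral amino acid transporter gene, where the median of all genes was 0.92. For Ddit3 they were Slc7a3 (0.527), a cationic amino acid transporter gene, Arrdc4 (0.617) and Gpr22 (0.619), with a median of 1.04. Slc7a3 ranged from 1.42 to 4.58 CPM in mutant Cre and from 0 to 1.33 CPM in wild-type Cre libraries.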

How the data were processed

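RNA of anti-haemagglutinin precipitates was measured in 23 spinal cord libraries, grouped by source label. Replicate numbers follow deposit order and pair nothing. Whether libraries came from different animals is not stated in the labels, so the tests reflect variation among libraries, which may be technical.

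The submitters' processing notes list Bowtie2 2.2.0 and RSEM 1.2.12. Per the file headers, the deposited files hold expected counts, TPM and FPKM for each gene. The deposited expected counts carry no depth normalisation by the authors. The deposited TPM includes ribosomal RNA and served only to order genes within libraries. The deposited FPKM entered no result. Build, annotation and strand setting: not given in the sources used here. GENCODE M21 held 37607 of the 38924 gene IDs. Promoter sequences are RefSeq's, and 10 of 10 members matched.

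Expected counts were rounded and tested with edgeR 4.0.16 in R 4.3.3 by quasi-likelihood after TMM scaling. The low-count filter was filterByExpr (minimum count 10, minimum total 15). Each fit held only the groups compared, except the difference of genotype effects. Benjamini-Hochberg adjustment ran over all genes tested, with a threshold of 0.05. A positive log2 fold change is higher in mutants, or with Cre. The code was tested on simulated data. Replicates were compared for repeated deposits: over 55 pairs the chi-square per degree of freedom was at least 9.15, and none was treated as a repeat.

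The members and lists were chosen with earlier results of these data known. Besides the 10 members, Gars, Chat and Rpl22, up to 4 tested genes of each list with the smallest p between mutant and wild-type Cre are named. Mars, for its overlap with Ddit3, and Xist were named after their values were seen. The motor neuron marker Slc18a3 had no match. Alternatives were RLE factors, library totals only, no filter, DESeq2 1.42.0, limma 3.58.1 (voom with quality weights), no ribosomal RNA-like genes (Gm26924, mt-Rnr1, mt-Rnr2, Lars2 and Gm15662), the title number as a term, no libraries of title number 18405, an Xist covariate, all 23 libraries in one fit, and leaving out each library. Leaving out libraries under 1600000 counts outside ribosomal RNA, or Cre libraries high in oligodendrocyte markers, was chosen on seeing the data.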

Additional observations from a re-analysis of the deposited data

Results flagged for a closer look

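Of 39 groups of values, 6 held a library far from the others of its group by Dixon's test, which chance alone gives in about 1 in 20 groups of normally distributed values. Many of the CPM were low and skewed, so that rate need not hold here and no excess is shown. All 6 values were in no-Cre libraries. In wild-type no-Cre, Atf3 stood at 3.29 CPM in replicate 1 (25 counts) against at most 0.215 in the others. Replicate 2 of that group held 43.3 CPM of Cebpg (323 counts) against 10.8 to 19.3, and 2.15 CPM of Trib3 (16 counts) against at most 0.277. In mutant no-Cre, replicate 1 held 1.82 CPM of Cebpb (14 counts) against at most 0.589 and 4.17 CPM of Chac1 (32 counts) against at most 0.985. Replicate 5 of mutant no-Cre held 7.39 CPM of Nupr1 from 15 counts in the shallowest library, against at most 1.57 in the others.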

How the results depend on the processing

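No paired analysis was possible because replicate numbers follow deposit order and pair no libraries; the title number, whose meaning is not given, was tried as a term in its place. Of the alternatives, 11 of 23 gave a close number of called members for mutant against wild-type Cre, 23 of 23 for the genotypes without Cre, 33 of 34 for the difference of genotype effects, 23 of 24 for Cre in mutants and 19 of 22 for Cre in wild type. Close refers loosely to the number only, as 6 against 4 counted as close for Cre in mutants. The members called could differ, such as Ddit3, Nupr1 and Chac1 between the Cre genotypes with the title number as a term. For mutant against wild-type Cre, 3 members were called, where 41 of 12399 genes were. The number was 5 without the filter (89 of 23651 genes), 6 with DESeq2 (413 of 12399) and 6 with limma-voom (868 of 12399). With all 23 libraries in one fit it was 1 (11 of 14468 genes). Without libraries under 1600000 counts outside ribosomal RNA it was 1 (17 of 12856). Without the Cre libraries high in oligodendrocyte markers it was 7 (1285 of 11819). Leaving out 1 library gave 1 to 5 members. It gave 1 without replicates 1, 3 or 4 of wild-type Cre (17 of 12856, 10 of 12832 and 22 of 12778 genes). It also gave 1 without replicates 3 or 5 of mutant Cre (19 of 12259 and 16 of 12014 genes). Without replicate 2 of wild-type Cre it gave 5 (1054 of 12531 genes). The difference of genotype effects had 0 called members (3 of 14468 genes), and 2 with limma-voom (169 of 14468 genes). Cre in mutants had 4, where 1800 of 12741 genes were higher and 2447 lower, and 7 with library totals only, where 3248 were higher and 275 lower. Cre in wild type had 3 of 7, where 5738 of 12485 genes were called, against 0 with library totals only (906 genes), 5 of 7 with limma-voom (8547 genes) and 5 of 9 with all 23 libraries (6815 of 14468 genes). Library totals only moved the median of all genes to 0.79 for mutant against wild-type Cre and to 1.13 for Cre in mutants. Without ribosomal RNA-like genes the median Atf4 level was 225.8 TPM in mutant Cre, 87.92 in wild-type Cre, 60.14 in mutant no-Cre and 74.36 in wild-type no-Cre.

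Signs turned only in members that were not called. With Cre, Cebpb stood at 0.63 with library totals only (-0.56 to 0.17 with 1 library left out). Without Cre, Ddit3 stood at -0.26 with library totals only (-0.078 to 0.42 with 1 left out), Atf4 at 0.15 and Chac1 at 0.066 with limma-voom (Chac1 -1.27 to 0.42 with 1 left out) and Atf5 at 0.25 with the title number (-0.44 to 0.12). In the difference of effects, Cebpb stood at 1.12 with library totals only and 0.14 without shallow libraries (-0.66 to 0.51 with 1 left out), and Sesn2 at -0.86 with the title number. For Cre in mutants, Cebpg stood at 0.090 with RLE factors, 0.87 with totals only, 0.091 without the filter, 0.10 with DESeq2, 0.11 without ribosomal RNA-like genes, 0.46 without title number 18405, 0.031 with all 23 libraries and 0.32 without the Cre libraries high in oligodendrocyte markers (-0.28 to 0.23 with 1 left out). In these cases the cause was not tested. The title number left 4 and 4 libraries for the Cre genotypes, and only 1 number, with no term, without Cre. Atf3 and Trib3 were left out by the filter between mutant and wild-type Cre; without the filter all 10 members were tested and neither was called.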
